A study of Oncorhynchus mykiss with 9 samples.

Results

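Predicted microRNAs are short RNAs that the deposited tables list under predicted names, not under the name of a known miRNA. Those expressed in trout liver are described here: predicted sequences of at least 20 nt whose mean over 9 small-RNA libraries reached 1 TPM, each distinct sequence counted once. They were thus chosen by their measured mean level and their length, not by a difference between groups. By this rule 132 sequences were members, out of 607 predicted sequences of that length, and the other 475 lay under 1 TPM. The whole set of tables held 1413 entries with 1150 distinct sequences, of which 873 entries were predicted and 540 carried the name of a known miRNA. The members filled 204 of the predicted entries, since 45 of them were listed under several names, up to 8 for 1 sequence.

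All libraries were made from liver tissue, and the trout (Oncorhynchus mykiss) were wild-type. There were 3 libraries from acute hypoxia and 3 from moderate hypoxia, both after 12 h of lowered oxygen, and 3 from control fish. The sources used here give neither age, oxygen level nor the number of fish behind a library, so the spread that p-values rest on may be technical. The question behind the groups was which liver RNAs respond to 12 h of hypoxia.

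A miRNA is cut from a hairpin precursor. Drosha trims the hairpin, Dicer removes its loop, and the resulting duplex has a strand from the 5′ arm (5p) and a strand from the 3′ arm (3p). Usually 1 strand is kept by an Argonaute protein and the other is degraded. The seed, bases 2 to 8 of the mature strand, pairs with sites in messenger RNAs, so miRNAs with the same seed can share targets. A predicted miRNA is a candidate: reads that match a hairpin-forming stretch of the genome can also stem from repeats or from variants of a known miRNA. The deposited names give an arm to each sequence and no precursor here was listed with both of its arms. The sources used here give no genome positions and no hairpin sequences.

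Each member is called by its rank in mean abundance, P1 to P132. Sequences below are printed 5′ to 3′ in DNA letters, with the seed in capitals, as the deposited tables give them. The first set shows the most abundant member and the one that shares its seed, then members that differed between moderate hypoxia and another group under most settings tried (with P21 for the seed it shares with P12), and 2 of the 3 that were higher under moderate hypoxia than in control livers.
P1: tACGGTATgttatgtagactac
P3: tACGGTATgtactgtagact
P11: aCACCAACtgttccaatacaat
P12: tACTGTGTcctgatagtacc
P21: tACTGTGTcctgatggaacca
P26: cTCACTGAtcaatgaatgcaga
P39: aTAGGTAAcctgtccttgact
P65: gAGTACAAtgccgttggtatgt
P76: aACAAAGGgtgaacctgatcct
P79: tTTTAAAGgcagagtttgactc
P49: tACATTGTagtataactgtagt
P78: tTACTCTActgtattgtactct

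The second set shows predicted sequences beside the known entries whose letters they carry, because these share letters or a seed with a named miRNA.
P16: cACCGGGAatttcgtgtcagcaa
P63: cCCGGGAAtttcgtgtcagcaa
miR-731-y: cACCGGGAatttcgtgtcagca
P62: tCTCCCAAtccttgtaccagtgtct
miR-150-x: tCTCCCAAtccttgtaccagtgt
P36: aCTGATTTcctctggtgttcaga
miR-29-x: aCTGATTTcctctggtgtttaga
P45: cAGTGTTCagactacctgttcatt
miR-199-x: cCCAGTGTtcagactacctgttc
P85: tGAGAACTagcgcaccattggt
miR-146-x: tGAGAACTgaattccatagatgg

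The third set is the largest family of members by letters shared on the strand given, P4, P24, P47 and P104, followed by the pair P19 and P34.
P4: tATTCCCTatgtagagcacta
P24: tATTCCCTatgtagagcact
P47: tGTTCCCTatgtagagcacta
P104: cTATTCCCtatgttgtacact
P19: cACTTCGTagggaatagggtgt
P34: tGCACTTCgtagggaatagg

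The libraries held 8443330 to 16515910 reads in the joined tables, recovered from the low values, which were whole multiples of 1 read. A count of 3 reads equalled 0.182 to 0.355 TPM. Of the 132 members, 129 had at least 3 reads in every library, and 2 had 0 reads in 1 library (P104 in moderate hypoxia library 2 and P125 in acute hypoxia library 3). Reads per member over all libraries ran from 99 to 26062 with a median of 220.5, so the counting error of the weaker members is large. The labels name no molecular identifiers, and without them reads are not independent molecules, so floors and intervals cover counting error only. Of all 1413 entries, with no minimum of reads, 106 were more than 4 times higher in libraries 1 and 2 of moderate hypoxia than in any other library. None of them, 0 of 106, was a member. Members had to reach a mean of 1 TPM, and how many of the 106 did so was not counted. At 66 of 132 members the level in library 3 of moderate hypoxia was between those in libraries 1 and 2, and for other libraries the share of members with a middle level was 24.2% to 45.5%.

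The members were minor species of the liver pool. Their mean abundance over the 9 libraries ran from 1.005 to 271 TPM with a median of 2.24 TPM. By comparison, 244 known sequences of the same lengths above 1 TPM had a median of 34.1 TPM, and 90 of those, but 1 member, reached 100 TPM. There were 76 members of at least 2 TPM, 33 of at least 5 TPM and 16 of at least 10 TPM. The 10 most abundant held 58.1% of the members' summed mean of 934 TPM. These levels chose the members and are given as a description. The members nearest the limit were P130, P131 and P132 at 1.03, 1.01 and 1.005 TPM, and the nearest sequences outside it had 0.992, 0.971 and 0.971 TPM. Without the acute hypoxia libraries the mean of 10 members would fall under 1 TPM, without moderate hypoxia that of 1, and without control that of 5. P102 is among those 10, with group means of 2.31 TPM under acute hypoxia, 0.974 TPM under moderate hypoxia and 0.989 TPM in control livers. It is counted below as higher under acute than under moderate hypoxia, a rise that the choice of members favours. P124 is also among those 10, with 1.71 TPM under acute hypoxia, 0.797 TPM under moderate hypoxia and 0.762 TPM in control livers. Both count below among members whose acute hypoxia libraries do not overlap with moderate hypoxia or with control.

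**Figure D1:**
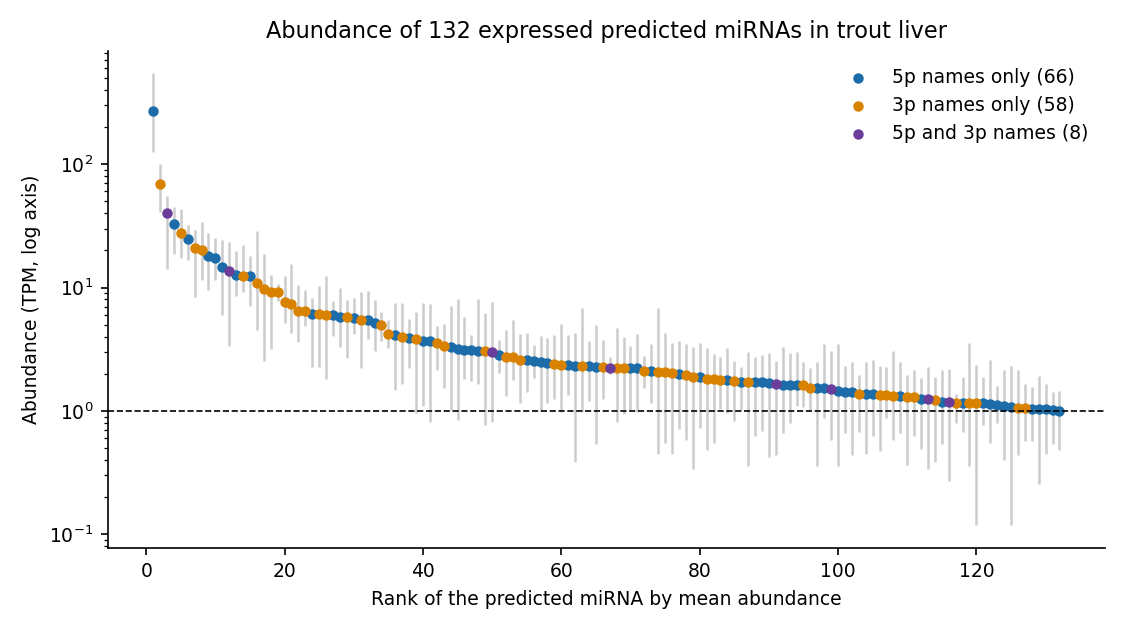
Mean abundance over 9 libraries (TPM, log axis) of the 132 members in rank order, coloured by the arm in their names, with grey lines from the lowest value above 0 to the highest single library. The dashed line marks 1 TPM, and P1 stands alone above 100 TPM while the median member has 2.24 TPM.

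P1 was the leading member in every library. It had 302, 206 and 272 TPM under acute hypoxia, 126, 148 and 137 TPM under moderate hypoxia, and 544, 371 and 338 TPM in control livers. The 3 groups did not overlap, with control highest and moderate hypoxia lowest. P3, a 20 nt sequence that shares the seed of P1 and was named both 5p and 3p, had 36.3, 14.1 and 49.2 TPM under acute hypoxia, 40.0, 39.2 and 39.2 TPM under moderate hypoxia, and 55.0, 46.1 and 44.2 TPM in control livers. Its acute hypoxia libraries spread across the values of both other groups, and it passed the test in none of the comparisons below.

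P2, a 3p name, had 68.6, 100.2 and 90.4 TPM under acute hypoxia, 58.5, 56.9 and 56.9 TPM under moderate hypoxia, and 70.8, 78.8 and 41.1 TPM in control livers. Acute lay above moderate hypoxia in all libraries, and control livers overlapped with both. P4, the leading member of the family printed in the third set, had 37.6, 37.9 and 39.6 TPM under acute hypoxia, 31.4, 18.6 and 25.98 TPM under moderate hypoxia, and 27.6, 44.5 and 33.9 TPM in control livers. P5 had 27.0, 43.5 and 37.5 TPM under acute hypoxia, 22.7, 21.3 and 19.1 TPM under moderate hypoxia, and 17.2, 31.0 and 28.0 TPM in control livers. For both, control libraries fell on either side of the lowest acute hypoxia library.

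P6 went the other way, with 22.4, 23.1 and 16.7 TPM under acute hypoxia, 25.5, 32.1 and 29.5 TPM under moderate hypoxia, and 25.3, 22.8 and 25.5 TPM in control livers. P7 had 27.6, 8.41 and 11.8 TPM under acute hypoxia, 22.7, 23.99 and 20.1 TPM under moderate hypoxia, and 27.3, 17.0 and 29.3 TPM in control livers. P10 had 19.3, 17.6 and 13.8 TPM under acute hypoxia, 11.5, 15.7 and 12.5 TPM under moderate hypoxia, and 21.7, 18.3 and 25.2 TPM in control livers. P6 was lower in every acute than in every moderate hypoxia library, P10 was lower in every moderate hypoxia library than in control, and P7 overlapped throughout. P2, P4, P5, P6, P7 and P10 passed the test in none of the comparisons below.

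By arm, 66 members carried 5p names only, 58 carried 3p names only, and 8 carried both on the same sequence. Median levels were 2.22 TPM for 5p, 2.35 TPM for 3p and 1.95 TPM for members with both names. At 10 TPM or more there were 8 on 5p names, 6 on 3p names and 2 with both. Of the reads on 5p or 3p members, 5p held 60.9 ± 3.25% under acute hypoxia, 55.6 ± 1.42% under moderate hypoxia and 67.4 ± 1.86% in control livers (SD, n = 3 each), and the exact 95% interval of a library was at most 2.33 points wide. Without the leading member of each arm, P1 and P2, these shares were 52.6 ± 0.139% under acute hypoxia, 48.9 ± 0.633% under moderate hypoxia and 51.1 ± 1.46% in control livers. Each moderate hypoxia library had a lower 5p share than every other library, but the margin to control was small. Moderate hypoxia library 3 had 49.3% and control library 1 had 49.6%. No counting interval was made for the shares without P1 and P2. Acute hypoxia and control overlapped. No test was made on these sums.

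**Figure D2:**
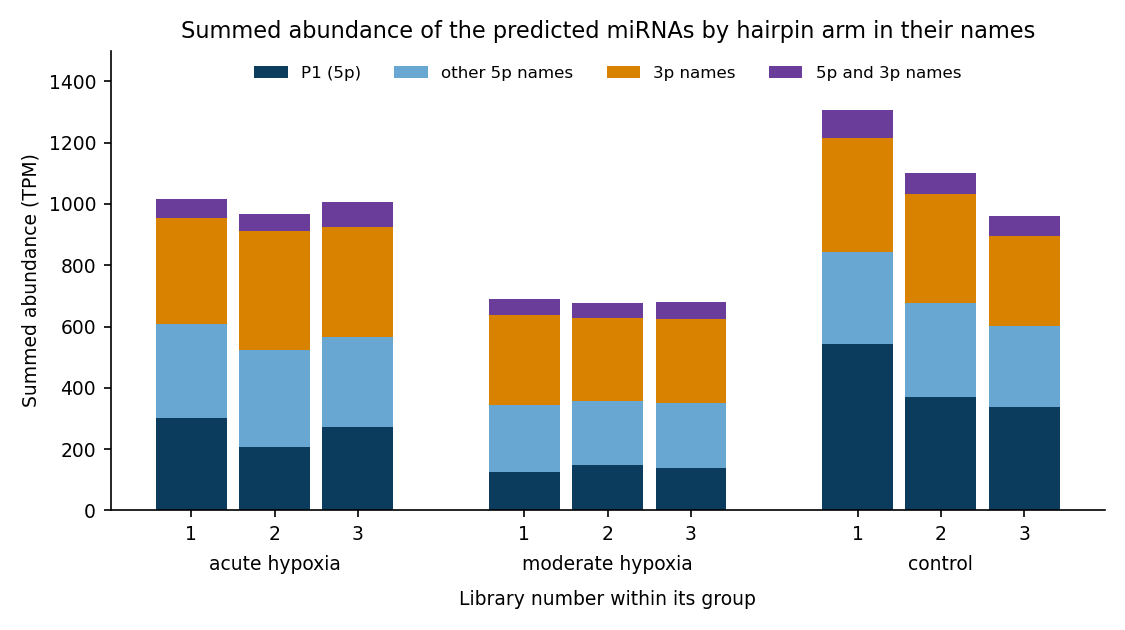
Summed abundance (TPM, from 0) of the members in each of the 9 libraries, split into P1, other 5p names, 3p names and sequences with both names. P1 takes 26 ± 4.25% of the sum under acute hypoxia, 20.1 ± 1.84% under moderate hypoxia and 36.8 ± 4.23% in control livers (SD, n = 3 each), and the moderate hypoxia bars are the shortest.

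All members together summed to 996 ± 26.8 TPM under acute hypoxia, 682 ± 7.43 TPM under moderate hypoxia and 1123 ± 174 TPM in control livers (SD, n = 3 each). Without P1 the sums were 737 ± 22.3 TPM under acute hypoxia, 546 ± 18.3 TPM under moderate hypoxia and 706 ± 73.6 TPM in control livers. With and without P1, the acute hypoxia mean lay within 1 control SD of the control mean. In TPM, every moderate hypoxia library stayed below every other library in both sums. The sums were not repeated under the other scalings described below. By the trimmed mean of M values, library factors were 0.817 to 0.875 under moderate hypoxia and 1.04 to 1.29 under acute hypoxia. In control livers they were 0.921 to 1.12. Dividing by these factors would put acute hypoxia library 2, which has the largest factor, below every moderate hypoxia library in both sums. The order in TPM therefore does not hold under that scaling. The sums in TPM are shares of a library. The hepatocyte miRNA miR-122-x filled 405699 to 460731 TPM under acute hypoxia, 504743 to 525228 TPM under moderate hypoxia and 307409 to 500523 TPM in control livers, so its share of the library was highest under moderate hypoxia. Its part in the members' sums was not tested.

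A first base T, which Argonaute proteins of animals bind well as U, was found in 57.6% of members, 59.1% of 5p and 56.9% of 3p, beside 50.4% of the 244 known sequences and 50.9% of predicted sequences under 1 TPM. A first base C was rarer on the 5p side, with 7.58% of 5p and 24.1% of 3p members. The members were 22 nt long in 53.8% of cases, and 44.7% of the known sequences were. Median GC content was 42.9%, against 45.5% for the known sequences. The letters ACT, searched at the 3′ end of each sequence as printed, closed 12 of 66 5p members (18.2%) and 3 of 58 3p members (5.17%). Among the 8 members with both names they closed 2, and over all 132 members 17 (12.9%). They closed 6.15% of known sequences and 9.89% of predicted sequences under 1 TPM, sets that were not split by arm. The choice of ACT was not set beforehand, so these counts are a description only.

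Members seldom shared letters with each other. There were 126 distinct seeds among the 132, and 5 seeds were shared, by 11 members: P1 and P3, P12 and P21, P23 and P25, P4 with P24 and P73, and P108 with P114. Runs of at least 12 nt on the strand given joined 16 members into 7 families. The largest of these, chosen for display after its letters were seen, holds P4, its 1 nt shorter form P24, P47, whose run of 19 nt with P4 begins at base 3 and whose seed differs, and P104, which carries a 12 nt run of P4 from its own base 2. P24 had 6.92, 6.51 and 7.86 TPM under acute hypoxia, 7.73, 2.29 and 5.09 TPM under moderate hypoxia, and 6.86, 8.28 and 3.86 TPM in control livers. P47 had 2.62, 3.43 and 3.30 TPM under acute hypoxia, 4.13, 3.02 and 3.51 TPM under moderate hypoxia, and 1.74, 3.99 and 2.09 TPM in control livers. The groups overlapped for both, while P104, described below, was low under moderate hypoxia.

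The letters ATTCCCTA, searched on the strand given, were in 3 of the members, all with 5p names (P4, P24 and P104), in 10 of 475 predicted sequences under 1 TPM and in 0 of the 244 known sequences. The complementary letters TAGGGAAT were in 3 members, all with 3p names (P19, P34 and P37), in 3 predicted sequences under 1 TPM and in 0 known sequences. P19 and P34 share a run of 18 nt and were also picked after their letters were seen. P19, listed under 4 names, had 10.7, 8.41 and 8.65 TPM under acute hypoxia, 10.2, 9.81 and 9.38 TPM under moderate hypoxia, and 7.83, 9.35 and 8.48 TPM in control livers. Its log2 changes were 0.10 (acute hypoxia over control), -0.08 (acute over moderate hypoxia) and 0.18 (moderate hypoxia over control). The match is a description of letters, and whether such sequences share a precursor or a repeat was not tested.

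In all, 12 members shared a run of at least 16 nt with a known entry, and 7 of them held a whole known sequence. P16 is miR-731-y with 1 more base at its 3′ end. miR-731 is a fish miRNA made from the same precursor cluster as miR-462, and the pair is known in zebrafish for its response to low oxygen. The direction of that response was not compared with the values here. P16 had 11.7, 6.63 and 7.40 TPM under acute hypoxia, 4.49, 5.78 and 5.09 TPM under moderate hypoxia, and 28.5, 12.6 and 15.5 TPM in control livers. miR-731-y had 88.5, 54.5 and 50.2 TPM under acute hypoxia, 33.2, 36.1 and 36.8 TPM under moderate hypoxia, and 182, 89.2 and 90.6 TPM in control livers. The order of the groups was the same for both, with control highest, moderate hypoxia lowest and no overlap. Of the reads on the 2 sequences, P16 held 11.7%, 10.9% and 12.8% under acute hypoxia, 11.9%, 13.8% and 12.2% under moderate hypoxia, and 13.5%, 12.3% and 14.6% in control livers. The exact 95% intervals of these shares were 2.92 to 6.44 points wide and overlapped between groups.

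P63 carries a 20 nt run of miR-731-y, from base 3 of the known sequence, at its own base 2, and so has another seed. It had 2.62, 1.42 and 1.59 TPM under acute hypoxia, 0.989, 1.48 and 1.15 TPM under moderate hypoxia, and 6.77, 2.14 and 2.75 TPM in control livers. Moderate hypoxia lay below control in all libraries, and acute hypoxia overlapped with both. P69, picked here after its letters were seen, extends miR-462-y, and had 3.29, 2.01 and 1.59 TPM under acute hypoxia, 1.35, 0.941 and 1.51 TPM under moderate hypoxia, and 2.71, 2.63 and 3.97 TPM in control livers. It lay lower under moderate hypoxia than in control livers in every library, as did P16 and P63, which carry letters of miR-731-y. Of all 481 entries tested, 30.8% were lower without overlap in that comparison. P63 and P69 kept the call described below in 0 of 4 other scalings. For miR-462-y itself the log2 change of moderate hypoxia over control was -0.45 in the limma test described below (adjusted p = 0.217), and it did not pass.

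P62 extends miR-150-x by 2 bases. In mammals miR-150 is a miRNA of mature lymphocytes that represses MYB. P62 had 1.60, 1.90 and 1.71 TPM under acute hypoxia, 3.51, 4.30 and 3.69 TPM under moderate hypoxia, and 0.387, 2.53 and 1.32 TPM in control livers. miR-150-x itself had 154, 122.6 and 125 TPM under acute hypoxia, 186, 196 and 193 TPM under moderate hypoxia, and 28.8, 140.0 and 155 TPM in control livers. Both were highest under moderate hypoxia in every library, and both were lowest in control library 1.

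P36 shares its first 19 nt with miR-29-x and holds the shorter entry miR-29-z whole. P36 had 3.46, 5.80 and 5.01 TPM under acute hypoxia, 3.15, 1.48 and 1.94 TPM under moderate hypoxia, and 7.54, 5.94 and 2.64 TPM in control livers. miR-29-x had 181, 248 and 255 TPM under acute hypoxia, 124, 171 and 136 TPM under moderate hypoxia, and 216, 278 and 229 TPM in control livers. P45 begins at base 3 of miR-199-x, a miRNA of stromal cells in mammals, and so has another seed. P45 had 3.29, 8.05 and 3.42 TPM under acute hypoxia, 1.98, 0.941 and 0.848 TPM under moderate hypoxia, and 5.32, 2.53 and 2.20 TPM in control livers. miR-199-x had 59132 TPM in its lowest library, and P45 made up at most 0.0070% of the 2 together in any library. P36 and P45 were both lowest under moderate hypoxia by group mean. Every acute hypoxia library lay above every moderate hypoxia library for both, while control overlapped with both hypoxia groups for P36 and with acute hypoxia for P45.

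P85 shares only its first base and its seed with miR-146-x, which dampens inflammatory signalling in mammals and averaged 13604 TPM here. P85 had 2.03, 0.829 and 1.14 TPM under acute hypoxia, 2.52, 1.61 and 2.42 TPM under moderate hypoxia, and 2.03, 1.27 and 1.98 TPM in control livers, and its groups overlapped. A seed was shared with a known sequence by 12 members. P18, picked after its letters were seen, begins at base 2 of miR-15-y. P18 had 11.8, 6.51 and 3.19 TPM under acute hypoxia, 12.7, 10.1 and 10.6 TPM under moderate hypoxia, and 6.48, 9.55 and 12.5 TPM in control livers. Its groups overlapped as well.

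**Figure D3:**
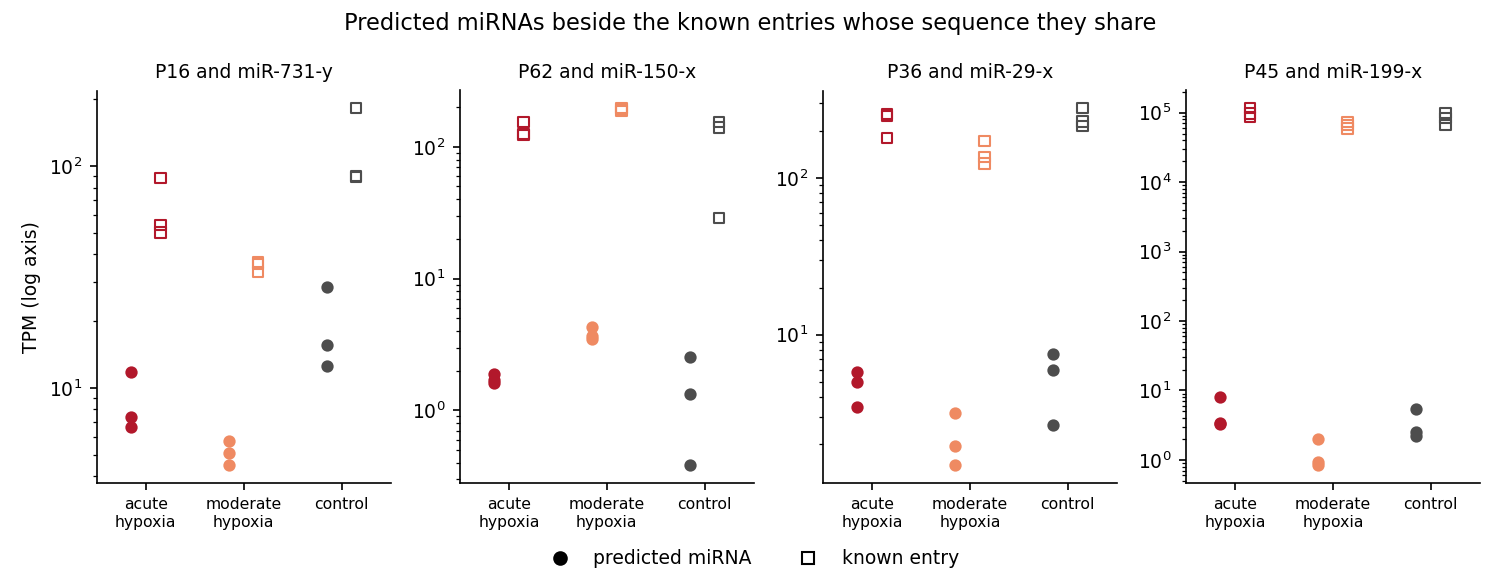
Abundance (TPM, log axis, a scale of its own in each panel) of 4 members (filled points) beside the known entry whose letters they carry (open squares) in each of 9 libraries. P16 follows miR-731-y at 10.9% to 14.6% of their joint reads in every library, while P45 stays far below miR-199-x.

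Each comparison was tested with limma on log2(TPM + 1) across all 481 entries of at least 1 TPM, and adjusted p-values are Benjamini and Hochberg values over these 481. The sentences below count 4 other scalings: trimmed mean of M values, median of ratios, quantile normalization, and TPM recomputed without miR-122-x. Fold changes on this scale understate the change of low members. Leaving out both moderate hypoxia libraries that stand apart, 1 and 2, left 0 members past the test in moderate hypoxia against control and 1, P39, in acute against moderate hypoxia. The log2 changes kept their direction in all 19 and all 26 members called below, and stayed within 1.5 times of their size in all 19 and in 25 of the 26, P29 being smaller. With only library 3 left in that group, which is then assumed to vary like the other groups, the SE was larger by a median of 1.53 and 1.55 times. The median change of all entries was -0.22 for moderate hypoxia over control and 0.32 for acute over moderate hypoxia, and rescaling by a trimmed mean of M values made both -0.01. Changes are therefore also to be read against those medians.

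Under moderate hypoxia, relative to control livers, 19 of the 132 members passed the test (14.4%), 3 higher and 16 lower, where 25.6% of all entries tested passed, 7.9% higher and 17.7% lower. The members' share lay below that of all entries, and below the 32.8% of the 244 known sequences. Their median log2 change was -0.15, against -0.22 for all entries. Groups did not overlap for 41 members (31.1%), 9 higher and 32 lower, against 43.2% of all entries, 12.5% higher and 30.8% lower. Calls came from both arms, with 1 higher and 7 lower of 66 on 5p names, 2 higher and 8 lower of 58 on 3p names, and 0 higher and 1 lower of 8 with both. Among the 16 members of at least 10 TPM, 7 passed, all lower, and among the 99 under 5 TPM 11 passed. With the trimmed mean scaling 4 were higher and 7 lower, and with the median of ratios 4 were higher and 8 lower. Without miR-122-x in the total 4 were higher and 9 lower. The share of all entries called was not counted under these scalings.

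P1, P11 and P16 fell under moderate hypoxia relative to control in all 4 other scalings and in all 9 fits without 1 library. P1 averaged 137 ± 11.2 TPM under moderate hypoxia and 418 ± 111 TPM in control livers (SD, n = 3 each), a log2 change of -1.57 (SE 0.237, adjusted p = 0.00174). Without moderate hypoxia libraries 1 and 2 the change was the same size at -1.57, with an adjusted p of 0.063. P11 had 20.4, 15.6 and 17.1 TPM under acute hypoxia, 5.93, 7.59 and 6.60 TPM under moderate hypoxia, and 24.3, 21.3 and 13.6 TPM in control livers, with a change of -1.39 (SE 0.253, adjusted p = 0.00450). The moderate hypoxia libraries lay below all others. P16, the longer form of miR-731-y, changed by -1.62 (SE 0.316, adjusted p = 0.00558), and miR-731-y itself by -1.66 (SE 0.311, adjusted p = 0.0048). Without the 2 libraries P11 had -1.41 and P16 -1.63, each with an adjusted p of 0.12.

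P26, P79, P100 and P104 also fell relative to control under all 4 scalings, and lost the call in 1, 1, 4 and 2 of the 9 fits without 1 library. With voom on recovered reads P100 (adjusted p = 0.0542) and P104 (adjusted p = 0.0801) lost it too, while P26 and P79 kept it. P26 had 9.54, 9.59 and 6.03 TPM under acute hypoxia, 1.80, 2.62 and 2.12 TPM under moderate hypoxia, and 12.5, 4.38 and 5.73 TPM in control livers, and changed by -1.32 on the log2 scale (SE 0.338, adjusted p = 0.0202). The 3 moderate hypoxia libraries lay below all others, and control library 1 was the highest. P79 had 2.96, 3.32 and 2.16 TPM under acute hypoxia, 0.989, 0.336 and 0.545 TPM under moderate hypoxia, and 2.32, 2.34 and 1.98 TPM in control livers, with a change of -1.003 (SE 0.239, adjusted p = 0.0144). P79 is listed under a second name with other values, a mean of 1.24 TPM in place of 1.88 TPM, and under that name the change was -0.74 with an adjusted p of 0.0534.

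P100 had 2.20, 1.42 and 1.71 TPM under acute hypoxia, 0.359, 0.470 and 0.606 TPM under moderate hypoxia, and 3.48, 1.75 and 1.10 TPM in control livers (log2 change -1.005, adjusted p = 0.028). P104, of the family of P4, had 2.45, 2.49 and 0.797 TPM under acute hypoxia, 0.449, 0 and 0.484 TPM under moderate hypoxia, and 1.45, 1.95 and 2.20 TPM in control livers (log2 change -1.14, adjusted p = 0.0217). Both were lowest in the moderate hypoxia libraries without overlap. P4, the leading member of that family, had a change of -0.47 (adjusted p = 0.180) and did not pass.

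The remaining named falls relative to control lost the call under at least 2 scalings. P8 had 25.7, 16.6 and 20.5 TPM under acute hypoxia, 11.6, 12.2 and 13.9 TPM under moderate hypoxia, and 33.7, 25.3 and 22.3 TPM in control livers (log2 change -1.03, adjusted p = 0.0139, 2 of 4 scalings). P9 had 22.7, 25.3 and 21.1 TPM under acute hypoxia, 10.3, 9.54 and 9.87 TPM under moderate hypoxia, and 14.4, 21.0 and 27.4 TPM in control livers (log2 change -0.96, adjusted p = 0.0202, 0 of 4 scalings). P12 had 17.1, 23.5 and 19.8 TPM under acute hypoxia, 6.83, 3.36 and 7.27 TPM under moderate hypoxia, and 20.01, 9.64 and 14.7 TPM in control livers (log2 change -1.21, adjusted p = 0.0213, 1 of 4 scalings). In all 3 the moderate hypoxia libraries were the lowest and did not overlap with control.

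P39 had 5.40, 5.33 and 6.38 TPM under acute hypoxia, 2.34, 1.48 and 0.969 TPM under moderate hypoxia, and 2.80, 5.65 and 4.08 TPM in control livers (log2 change -0.99, adjusted p = 0.0267, 1 of 4 scalings). P76 had 3.55, 3.20 and 2.39 TPM under acute hypoxia, 0.449, 0.941 and 0.969 TPM under moderate hypoxia, and 1.35, 3.21 and 2.20 TPM in control livers (log2 change -0.84, adjusted p = 0.0433, 0 of 4 scalings). P63, which carries a run of miR-731-y, changed by -1.04 (adjusted p = 0.0433, 0 of 4 scalings). The rest of the 16, P15, P69 and P90, lie outside the rule for named members and changed by -0.80 (P15), -0.85 (P69) and -0.87 (P90), each losing the call under all 4 scalings.

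P49, P62 and P78 rose under moderate hypoxia relative to control, in all 4 scalings. P49 had 0.845, 3.55 and 2.62 TPM under acute hypoxia, 4.58, 6.18 and 4.72 TPM under moderate hypoxia, and 1.74, 2.34 and 0.771 TPM in control livers, a log2 change of 1.27 (SE 0.355, adjusted p = 0.0256). P62, the longer form of miR-150-x, changed by 1.10 (SE 0.312, adjusted p = 0.0271), while miR-150-x changed by 1.15 (SE 0.502, adjusted p = 0.111) and did not pass. P78 had 1.44, 2.25 and 1.25 TPM under acute hypoxia, 3.51, 2.35 and 3.33 TPM under moderate hypoxia, and 0.580, 1.56 and 1.21 TPM in control livers, a log2 change of 0.96 (SE 0.266, adjusted p = 0.0256). For these 3 every moderate hypoxia library lay above every other library. Each lost the call in 3 or 4 of the 9 fits without 1 library, and the lowest changes there were 1.02 (P49), 0.75 (P62, without control library 1) and 0.76 (P78).

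**Figure D4:**
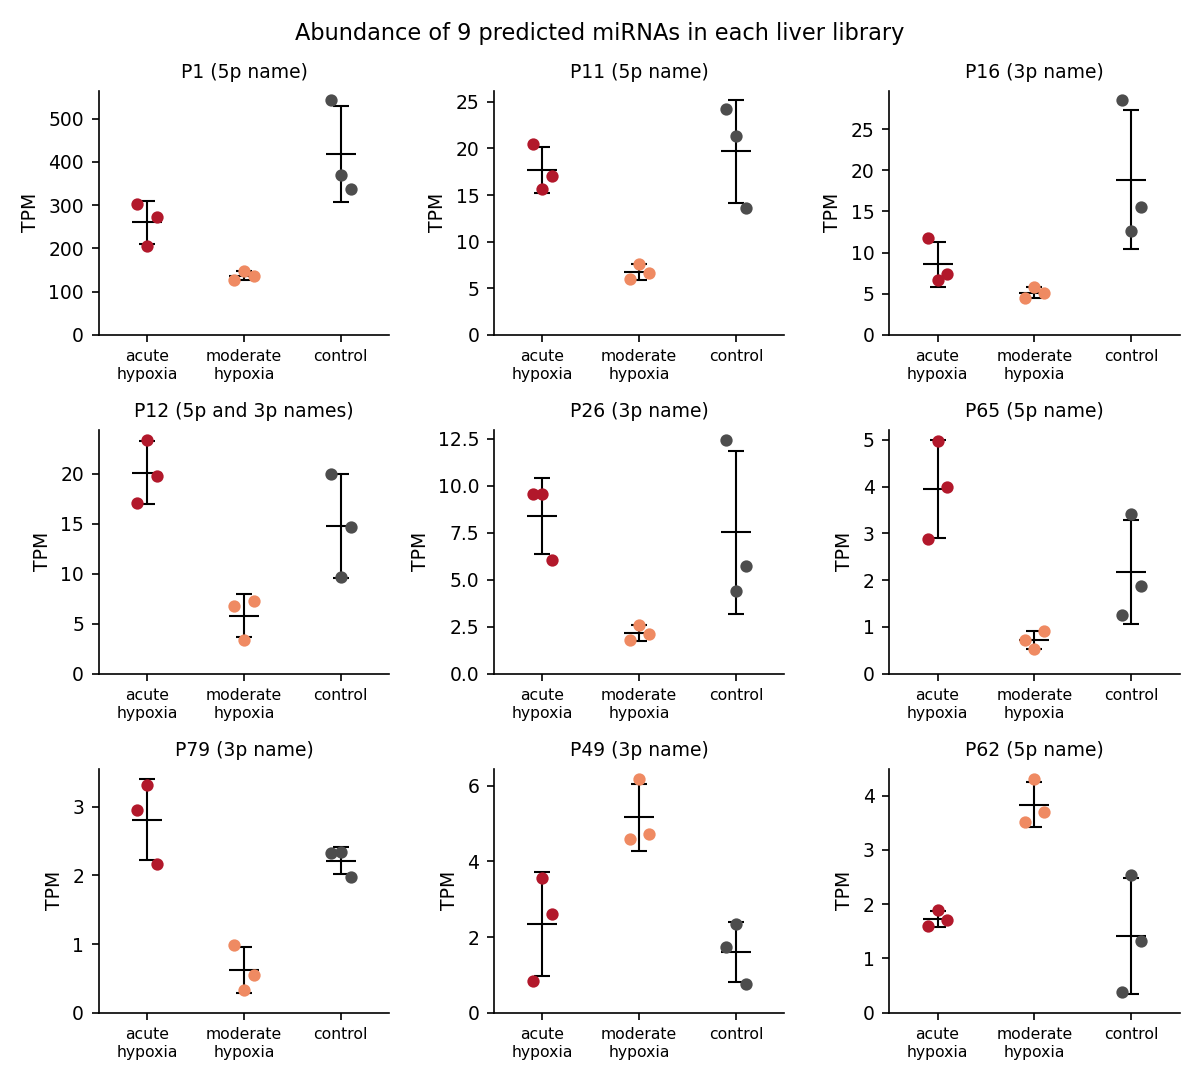
Abundance (TPM, linear axes from 0) of 9 members in each library, with the mean (long bar) and SD (capped line) of the 3 libraries of a group. For P1, P11, P16, P12, P26, P65 and P79 the moderate hypoxia points lie below all others, and for P49 and P62 they lie above all others.

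Sums over lists of miRNAs that mark cell types are given for the same groups. No test was made on the sums, and sequences within a list did not all change alike. In the limma test of moderate hypoxia over control, miR-142-x changed by -0.53 and miR-150-x by 1.15, both of the leukocyte list. Of the stroma list, miR-143-x changed by 0.91 and miR-145-x by -0.58. The change of miR-122-x, most of the hepatocyte sum, was 0.32 (adjusted p = 0.254) and did not pass. The red blood cell list summed to 2156 to 3122 TPM under acute hypoxia, 679 to 872 TPM under moderate hypoxia and 2017 to 3512 TPM in control livers. The endothelium list summed to 13401 to 19700 TPM under acute hypoxia, 6719 to 7379 TPM under moderate hypoxia and 11982 to 16161 TPM in control livers. The hepatocyte list, which holds miR-122, summed to 434292 to 489697 TPM under acute hypoxia, 543881 to 568742 TPM under moderate hypoxia and 342298 to 528359 TPM in control livers. All 6 red blood cell, both endothelium and all 7 hepatocyte sequences reached 1 TPM, and moderate hypoxia did not overlap with the other groups in any of these 3 sums. The pancreas list, with 3 of 6 sequences at 1 TPM, did not overlap either, at 135 to 169.8 TPM under acute hypoxia, 174 to 189.6 TPM under moderate hypoxia and 109 to 142 TPM in control livers. The leukocyte list, which holds miR-150, summed to 954 to 1523 TPM under acute hypoxia, 787 to 870 TPM under moderate hypoxia and 719 to 1345 TPM in control livers, and the stroma list to 110191 to 143891 TPM under acute hypoxia, 84960 to 93953 TPM under moderate hypoxia and 86027 to 122272 TPM in control livers. Of these lists 5 of 9 leukocyte and 10 of 11 stroma sequences reached 1 TPM, and both sums overlapped between moderate hypoxia and control but not between acute and moderate hypoxia. The striated muscle list, with all 4 sequences at 1 TPM, showed the same overlaps at 9.04 to 13.4 TPM under acute hypoxia, 18.7 to 27.1 TPM under moderate hypoxia and 11.8 to 22.4 TPM in control livers. Fewer cells of a type and less RNA per cell cannot be told apart in bulk liver, and the part of these shifts in the members' values was not tested.

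Acute set against moderate hypoxia, 26 of 132 members passed the test (19.7%), 24 higher and 2 lower under acute hypoxia, where 30.6% of all entries passed, 22.9% higher and 7.69% lower. The comparison shares the moderate hypoxia libraries with the one before it, so the 12 members called in both do not support each other. The members' median log2 change was 0.31, beside 0.32 for all entries. Groups did not overlap for 63 members (47.7%), 53 higher and 10 lower, against 52.8% of all entries, 40.5% higher and 12.3% lower. On 5p names 15 of 66 were higher and 0 lower, on 3p names 7 of 58 were higher and 2 lower, and 2 of 8 with both names were higher. The balance of higher and lower calls depended on the scaling, while 0 of the 26 calls changed direction. It was 9 higher and 8 lower under the trimmed mean of M values, and 9 higher and 7 lower under the median of ratios. Quantile normalization gave 13 higher and 7 lower, and leaving miR-122-x out of the total gave 15 higher and 5 lower. For these scalings the share of all entries called was not counted.

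P11, P12, P26, P39, P65, P76 and P79 were higher under acute than under moderate hypoxia in all 4 scalings and in all 9 fits without 1 library. P12, whose values are given above, had the largest change among these 7 on the log2(TPM + 1) scale, 1.68 (SE 0.321, adjusted p = 0.00402), but by the ratio of group means it was 3.46-fold, against 5.46-fold for P65 and 4.51-fold for P79. P12 had means of 20.1 ± 3.17 TPM under acute hypoxia and 5.82 ± 2.14 TPM under moderate hypoxia (SD, n = 3 each). Its relative P21, with the same seed and the first 14 nt in common, had 6.33, 15.5 and 9.79 TPM under acute hypoxia, 5.30, 4.64 and 5.03 TPM under moderate hypoxia, and 8.79, 7.01 and 4.30 TPM in control livers. It changed by 0.87 (adjusted p = 0.06) and did not pass. P21 lies outside the rule for named members and was picked for its letters. P26 changed by 1.55 (SE 0.338, adjusted p = 0.00725).

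P65 had 2.87, 4.97 and 3.98 TPM under acute hypoxia, 0.719, 0.538 and 0.908 TPM under moderate hypoxia, and 1.26, 3.41 and 1.87 TPM in control livers, a log2 change of 1.505 between the hypoxia groups (SE 0.289, adjusted p = 0.00402). All moderate hypoxia libraries lay below every other one. P39 changed by 1.40 (SE 0.280, adjusted p = 0.00488) and kept the call without moderate hypoxia libraries 1 and 2, at 1.76 (adjusted p = 0.0385). P11 changed by 1.28 (adjusted p = 0.00479), P79 by 1.24 (adjusted p = 0.00407) and P76 by 1.18 (adjusted p = 0.0101). Under its second name P79 changed by 0.75 (adjusted p = 0.0458).

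P45, which carries a run of miR-199-x, changed by 1.34 between acute and moderate hypoxia (SE 0.369, adjusted p = 0.0213) and kept the call in all 4 scalings, as did P104 at 1.11 (adjusted p = 0.0213). P45 lost it in 2 of the 9 fits without 1 library (moderate hypoxia 2 and acute hypoxia 2). P104 lost it in 3 (moderate hypoxia 2, acute hypoxia 1 and acute hypoxia 2) and with voom on recovered reads (adjusted p = 0.0732). miR-199-x changed by 0.59 (SE 0.200, adjusted p = 0.0458). P41 had 7.35, 4.86 and 3.19 TPM under acute hypoxia, 0.809, 2.08 and 1.33 TPM under moderate hypoxia, and 6.09, 6.04 and 1.43 TPM in control livers (log2 change 1.33, adjusted p = 0.0401, 1 of 4 scalings). P44 had 2.87, 7.11 and 5.58 TPM under acute hypoxia, 2.43, 1.01 and 2.36 TPM under moderate hypoxia, and 3.58, 3.21 and 1.32 TPM in control livers (log2 change 1.05, adjusted p = 0.0499, 0 of 4 scalings). The hypoxia groups did not overlap for either. P9 changed by 1.14 (adjusted p = 0.00725) and kept the call in 1 of 4 scalings, as did P1 at 0.90 (adjusted p = 0.0173). P36, beside miR-29-x at 0.66 (adjusted p = 0.0458), had 0.87 (adjusted p = 0.0742) and did not pass.

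P25 and P43 were lower under acute than under moderate hypoxia, in all 4 scalings. P25 had 3.88, 2.25 and 4.90 TPM under acute hypoxia, 10.3, 5.98 and 8.90 TPM under moderate hypoxia, and 9.76, 4.87 and 3.64 TPM in control livers, and changed by -1.02 on the log2 scale (SE 0.353, adjusted p = 0.0499). That call lies at the threshold: 7 of the 9 fits without 1 library lost it, and under another name of the same sequence the adjusted p was 0.0544. P43 had 1.52, 1.90 and 2.05 TPM under acute hypoxia, 3.96, 4.37 and 3.996 TPM under moderate hypoxia, and 5.03, 3.21 and 4.08 TPM in control livers, a change of -0.86 (SE 0.224, adjusted p = 0.0166) that was lost without moderate hypoxia library 2. Its acute hypoxia libraries lay below all 6 others. The relative of P25 with the same seed, P23, also picked for its letters, had a change of -0.12.

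**Figure D5:**
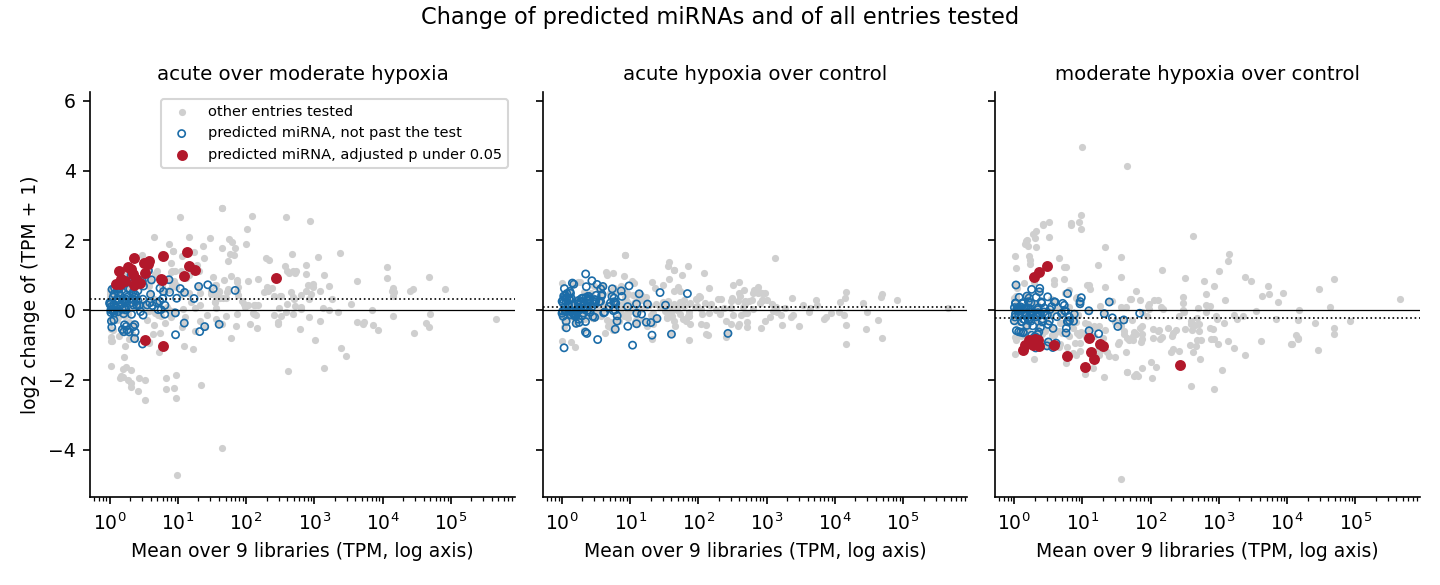
Log2 change of (TPM + 1) against mean abundance (TPM, log axis) in the 3 comparisons, with members past an adjusted p of 0.05 as filled red points, other members as open blue circles and the other entries tested in grey. The dotted line is the median of all 481 entries, 0.32 for acute over moderate hypoxia and -0.22 for moderate hypoxia over control, and no member is filled in acute hypoxia over control.

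Acute hypoxia set against control gave 0 of 132 members past limma's test, beside 0% of all 481 entries, and 11 members had an unadjusted p under 0.05 (47 of all entries). The same test on recovered reads with voom weights also called 0. Groups did not overlap for 15 members (11.4%), 12 higher and 3 lower, against 11.2% of all entries, 8.94% higher and 2.29% lower, and the median change was 0.11, against 0.08. The 12 higher include P102 and P124, which reach 1 TPM only through acute hypoxia, so the choice of members favours part of that count. The 5 members with the smallest unadjusted p-values are named here. P68 had 3.72, 4.74 and 3.19 TPM under acute hypoxia, 1.98, 0.806 and 1.51 TPM under moderate hypoxia, and 0.967, 1.75 and 1.43 TPM in control livers (log2 change 1.03, SE 0.263, adjusted p = 0.331). P52 had 3.80, 4.38 and 4.55 TPM under acute hypoxia, 2.34, 1.95 and 1.88 TPM under moderate hypoxia, and 2.32, 2.24 and 1.32 TPM in control livers (0.84, SE 0.229, adjusted p = 0.331). In both the 3 acute hypoxia libraries were above all 6 others.

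P43 changed by -0.85 between acute hypoxia and control (SE 0.224, adjusted p = 0.331) and P16 by -1.01 (SE 0.316, adjusted p = 0.331). P125 had 1.18, 0.118 and 0 TPM under acute hypoxia, 0.899, 0.941 and 0.848 TPM under moderate hypoxia, and 2.22, 1.17 and 2.31 TPM in control livers, a log2 change of -1.08 (SE 0.314, adjusted p = 0.331). It reached the limit of 1 TPM only through control, with group means of 0.434 TPM (acute hypoxia), 0.896 TPM (moderate hypoxia) and 1.90 TPM (control). The choice of members therefore favours this fall. Acute hypoxia library 3 held no read of P125 and library 2 held a single read's worth, 0.118 TPM, and library 1 overlapped with control by a small margin. Against moderate hypoxia, P68 (1.02, adjusted p = 0.0163) and P52 (0.78, adjusted p = 0.0272) rose under acute hypoxia. P68 kept that call in 2 of 4 scalings and P52 in 1.

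In the authors' deposited table, 9 members had a false discovery rate under 0.05 in moderate hypoxia against control, 4 higher and 5 lower, and 8 of them were among the 19 called here. For acute against moderate hypoxia the authors' deposited table gave 15 members, 11 higher and 4 lower, of which 12 were among the 26. In the authors' deposited table of acute hypoxia and control the lowest rate of any member found there was 0.243. P1 stood in the authors' deposited table with a log2 fold of -1.61 and a false discovery rate of 0.00522 for moderate hypoxia over control.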

How the data were processed

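Small RNA of 9 liver libraries (3 acute hypoxia, 3 moderate hypoxia, 3 control) was taken from total RNA with Trizol and made into libraries with Illumina protocols, per the labels' protocols. Aligner, genome build, counting and miRNA prediction are not stated in labels or headers.

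The authors deposited 1 file of 3 stacked tables, each for a pair of groups. Its abundance values are a signal named TPM per the file headers, where 0.01 stands for 0. The log2 fold changes and the p-values and false discovery rates of the file are the authors' deposited results, from a test the headers do not name. The first and last tables (moderate hypoxia and control, acute and moderate hypoxia) share 1413 entries and were joined. The remaining one (acute hypoxia and control) is another naming run of 1139 entries, used only as an alternative.

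Members were entries with predicted names, at least 20 nt long, with a mean of at least 1 TPM. Each sequence was counted once, at its entry with the highest mean. Of 45 sequences with several names, 36 had the same values under each name, and in the other 9 the means differed by up to 1.51 times. The members, lists and rules were chosen with earlier results of these data known.

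A model of log2(TPM + 1) with 3 group means was fitted with limma 3.58.1 and a mean-variance trend (R 4.3.3) to the 481 entries of at least 1 TPM, with Benjamini and Hochberg adjustment per comparison at 0.05. The steps were tested on simulated data. Members named are the 10 most abundant, up to 12 called rises and 12 called falls per comparison (with fewer than 5 calls, the 5 smallest unadjusted p-values), 3 on either side of 1 TPM, and those with the seed of a known miRNA of at least 100 TPM. Exact 95% intervals of shares came from scipy 1.17.1 (Python 3.11.15) and figures from matplotlib 3.10.9. Alternatives were other pseudocounts (0.1 and 5 TPM), filters, scalings, a replicate block, leaving out libraries and, chosen after seeing the data, voom on the recovered reads.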

Additional observations from a re-analysis of the deposited data

How the results depend on the processing

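Of 2111 single-member results under other settings, 1888 stayed on their side of the threshold, 187 lost the call and 36 gained one. Among results called in the main fit 0 changed direction, and for results not called there direction was not compared. For moderate hypoxia against control (19 called), 5 were called with no filter, 8 of the 16 members of at least 10 TPM, 11 with the trimmed mean of M values, 12 with the median of ratios and 12 with quantile normalization. For acute against moderate hypoxia (26 called) the counts were 15 with no filter, 7 of 16 at 10 TPM, 17 with the trimmed mean and 16 with the median of ratios. Other entries enter the fit under other filters. The share of all entries called was counted for the main fit only. Whether these shifts are particular to the members is therefore not shown. For the rescalings, the cause was not tested. Without moderate hypoxia libraries 1 and 2 together, 0 and 1 were called, with fewer samples in the fit. Leaving out 1 library each gave 7 to 23 (moderate hypoxia against control) and 12 to 36 (acute against moderate hypoxia). The lowest counts came without moderate hypoxia library 2 in both, where 7 and 12 were called, and without moderate hypoxia library 1 there were 8 and 14. Pseudocounts of 0.1 and 5 TPM, scaling without miR-122-x, 1 entry per sequence and voom on recovered reads gave 13 to 21 and 20 to 27. Acute hypoxia against control gave 0 in every fit, the second naming run included. The 5p share over members of at least 10 TPM was 65.4% to 72.9% under acute hypoxia, 63.2% to 65.1% under moderate hypoxia and 75.1% to 77.6% in control livers.

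With the replicate number as a replicate block, 17, 24 and 0 members were called (moderate hypoxia against control, acute against moderate hypoxia, acute hypoxia against control). Deviations of same-numbered libraries correlated at -0.21 to 0.26. These values do not settle whether same-numbered samples share more than a number, and the sources used here give only the number. The edgeR alternative on recovered reads was not run. Depth limits the weaker members: 99 reads over 9 libraries stand behind the least counted one.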

Other observations

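The second naming run, of acute hypoxia with control, held 118 of the 132 member sequences, all under predicted names, and 5 of them under the same name. Its values were within 5% of those of the joined tables in 86.8% of cases, with a median ratio of 1.0.

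The predicted name in the series title was looked up in that run, where it stands for a 20 nt sequence. That sequence was not among the joined entries, and whether the name stands there for another sequence was not checked. It is printed here with its seed in capitals.
Title sequence: gAGTAAATggaaaggtctga
It had 9.54, 5.21 and 5.58 TPM under acute hypoxia and 38.9, 5.65 and 9.48 TPM in control livers. Control library 1 was the highest and the other libraries overlapped. In the authors' deposited table its log2 fold of acute hypoxia over control was -1.41 with a false discovery rate of 0.658. None of the 132 members has its seed.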
